A study of Mus musculus with 2 samples.

Results

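The RNA of MHC class I molecules was followed through 10 genes in CD45.2+CD11b+ cells sorted out of mouse spleen. These were the heavy chain genes H2-D1, H2-K1, H2-Q4, H2-Q6, H2-Q7, H2-Q10, H2-T22 and H2-T23, the light chain gene B2m, and Nlrc5, which encodes a transactivator of class I genes. They were taken by symbol from a list of class I genes, and all 10 were present among the 32285 genes of the files. The data are single-cell 3′ RNA counts from 1 library of high-B12 cells and 1 library of low-B12 cells. CD45.2 is an allelic form of a pan-leukocyte antigen, and CD11b is an integrin subunit carried by neutrophils, monocytes and parts of the dendritic, NK and B cell compartments. Both libraries were made from frozen, viable cell suspensions. The title of the series names Tet2 deficiency as its setting. Neither library's labels give a genotype, strain, age, dose, length of treatment or number of mice.

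With 1 library per condition there was no test between conditions, and every interval is at 95% and covers counting error only. An effect of B12 cannot be told apart from any other way in which the 2 libraries differ. The high-B12 library held 46994991 UMIs (unique molecular identifiers, 1 per captured RNA molecule) and 6748 cells, and the low-B12 library 48884220 UMIs and 6510 cells, and 4 cell barcodes occurred in both. Cells were given to classes by marker UMIs, which are not class I genes. This gave 2672 and 942 neutrophils, 673 and 1853 B cells, 844 and 946 NK cells, 403 and 479 conventional dendritic cells (cDC) and 842 and 1264 monocytes, high-B12 library first. The remaining 1314 and 1026 cells stayed unassigned. Markers that the assignment did not use were all detected in their class in both libraries. Their summed level was higher there than in the other 4 classes for neutrophils (10806 CPM in the high-B12 and 7751 CPM in the low-B12 library, in UMIs per 1000000 UMIs of the class), B cells (5548 and 5961 CPM), NK cells (12646 and 10778 CPM) and monocytes (2625 and 2314 CPM). For cDC the 4 such markers stood at 584 and 632 CPM, against 575 and 706 CPM in B cells, which also express the class II genes among them, so the cDC label rests on Cd209a, Clec10a and Flt3, which assigned the cells. Levels of different genes are set side by side as UMIs, which count 3′ ends and are not scaled to length, so they rank genes only as far as capture is alike.

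A class I molecule is a heavy chain held together by β2-microglobulin, the product of B2m, and loaded with a peptide in the endoplasmic reticulum. The classical molecules H2-K and H2-D, encoded by H2-K1 and H2-D1, show peptides to CD8 T cells and are also ligands of Ly49 receptors of NK cells. The H2-Q and H2-T genes encode nonclassical heavy chains: H2-Q6 and H2-Q7 give the Qa-2 antigen, H2-T23 gives Qa-1, the ligand of CD94/NKG2A, H2-T22 is bound by a set of γδ T cells, and H2-Q10 encodes a soluble form known from the liver. Interferons raise class I genes through a shared upstream region, and NLRC5 acts through a neighbouring promoter module.

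The 8 heavy chain genes lie on chromosome 17 in GRCm38, from H2-K1 (chr17:33996017-34000347, minus strand) through H2-D1 (chr17:35262730-35267499, plus strand) and the Q genes, of which H2-Q10 is at chr17:35470089-35474563, to H2-T22 (chr17:36037128-36042747, minus strand). B2m lies at chr2:122147686-122153083 and Nlrc5 at chr8:94434356-94527272, both on the plus strand. Promoter windows of RefSeq (build GRCm38.p6, 250 bases before to 50 after an annotated start) matched 9 of the 10 genes, not Nlrc5. The stretches below are shown because each holds the letters of an interferon response element. Those of H2-D1 and H2-T23 lie before the RefSeq start but inside the annotated span of the gene. Each is 50 bases, 5′ to 3′ on the gene's strand. Capitals mark the interferon response letters TTTCNCTT and, as the longer run, a κB palindrome.
H2-D1 (chr17:35262914-35262963): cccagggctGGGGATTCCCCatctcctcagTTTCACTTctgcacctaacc
H2-K1 (chr17:34000418-34000467): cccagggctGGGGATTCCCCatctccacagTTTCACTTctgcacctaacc
H2-Q4 (chr17:35379434-35379483): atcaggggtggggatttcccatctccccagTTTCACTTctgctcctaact
H2-Q6 (chr17:35424668-35424717): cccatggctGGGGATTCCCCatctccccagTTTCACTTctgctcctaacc
H2-Q7 (chr17:35439012-35439061): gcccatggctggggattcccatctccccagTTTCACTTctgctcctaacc
H2-Q10 (chr17:35469904-35469953): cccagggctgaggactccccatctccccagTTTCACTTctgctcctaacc
H2-T22 (chr17:36042914-36042963): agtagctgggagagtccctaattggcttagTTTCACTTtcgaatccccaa
H2-T23 (chr17:36032806-36032855): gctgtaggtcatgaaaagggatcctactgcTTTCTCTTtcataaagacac

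All 8 heavy chain windows held the interferon letters, as did 7.66% of all 32851 mouse promoter windows searched on both strands. The κB palindrome stood in H2-D1, H2-K1 and H2-Q6, and in 10 of the 32851 windows. The H2-K1 stretch differed from that of H2-D1 at 1 of 50 bases and the H2-Q10 stretch at 4, compared without gaps. The H2-T22 and H2-T23 stretches differed at 26 and 32, so a longer stretch was not shared by all heavy chains. The B2m window held neither. These are matches of letters only, and no binding was measured.

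The second set starts 40 bases after the start of the interferon letters and covers a part of the module through which NLRC5 is known to act. The bases between the first and the second set are not shown. Of that module only the letters marked here were searched. The second set is shown because H2-Q10 stands apart from the other heavy chains in the counts as well, which were known when the set was chosen. A link between these letters and the counts was not tested. Capitals mark TGACG, letters of a cAMP response element, and ATTGG, the inverted CCAAT box.
H2-D1 (chr17:35262984-35263033): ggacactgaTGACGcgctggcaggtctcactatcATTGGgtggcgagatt
H2-K1 (chr17:34000348-34000397): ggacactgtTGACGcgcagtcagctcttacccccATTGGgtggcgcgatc
H2-Q7 (chr17:35439082-35439131): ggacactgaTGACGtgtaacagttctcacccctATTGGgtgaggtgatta
H2-Q10 (chr17:35469974-35470023): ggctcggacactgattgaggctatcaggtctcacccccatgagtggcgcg
In the whole 300-base windows, H2-Q10 was the only member of the 9 with neither ATTGG nor TGACG on either strand. ATTGG occurred in 37.4% and TGACG in 20.8% of all windows.

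H2-D1 had the most UMIs of all heavy chains in every class of both libraries except low-B12 NK cells, where H2-K1 was level with it. Levels are given as CPM, a gene's summed UMIs in a class per 1000000 UMIs of that class. H2-D1 stood at 1513 CPM in high-B12 and 1443 CPM in low-B12 neutrophils, at 1783 and 1798 CPM in B cells, at 2922 and 2479 CPM in NK cells, at 1971 and 1785 CPM in cDC and at 2215 and 2183 CPM in monocytes. The order of classes ran from NK cells through monocytes to neutrophils, a 1.93-fold range in the high-B12 and a 1.72-fold range in the low-B12 library. H2-K1 varied far more between classes, by 6.79-fold and 4.46-fold, again from NK cells to neutrophils.

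H2-K1 was lower in the high-B12 library, beyond counting error, in neutrophils, B cells and monocytes, while H2-D1 was not lower beyond counting error in any class. H2-K1 stood at 393 CPM in high-B12 and 565 CPM in low-B12 neutrophils, a ratio of 0.696 (0.668 to 0.726). In B cells it stood at 1384 and 1744 CPM (0.794, 0.773 to 0.816), in monocytes at 923 and 1087 CPM (0.850, 0.824 to 0.876) and in cDC at 1023 and 1060 CPM (0.965, 0.928 to 1.00). In NK cells it was higher, at 2670 and 2520 CPM (1.06, 1.03 to 1.09). H2-D1 had a ratio of 1.05 (1.02 to 1.07) in neutrophils, 0.992 (0.968 to 1.02) in B cells, 1.18 (1.15 to 1.21) in NK cells, 1.105 (1.07 to 1.14) in cDC and 1.01 (0.994 to 1.04) in monocytes.

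**Figure D1:**
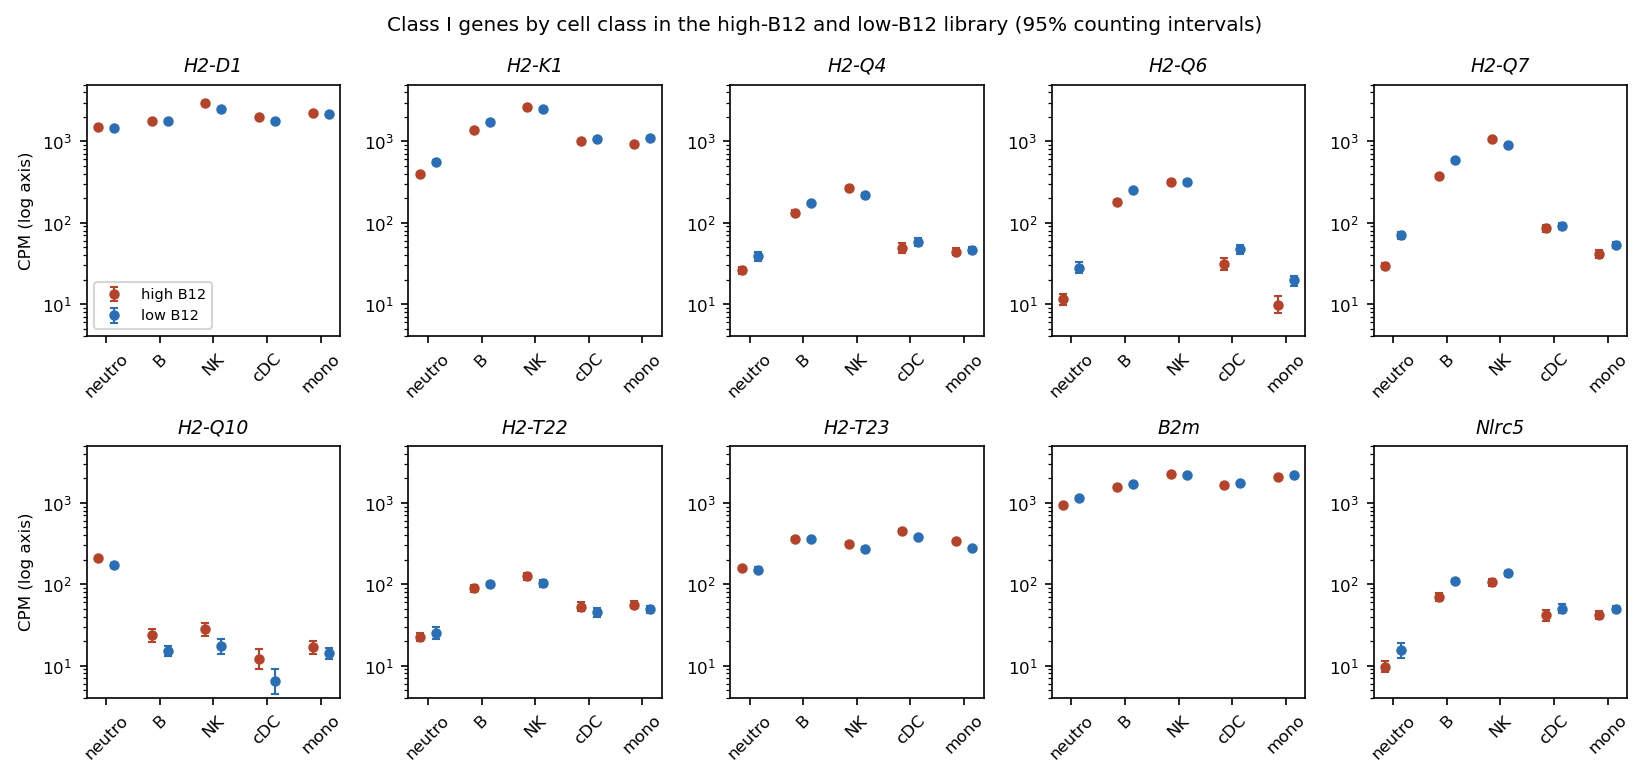
CPM of the 10 genes (log axis) by cell class, high-B12 library in red to the left of the low-B12 library in blue, with exact 95% Poisson intervals. H2-Q10 is highest in neutrophils, while H2-D1, H2-K1, the other H2-Q genes and Nlrc5 are highest in NK cells.

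The balance between the classical genes leaned further towards H2-D1 in high-B12 cells of every class. H2-D1 made up 79.4% of H2-D1 and H2-K1 UMIs in high-B12 and 71.9% in low-B12 neutrophils, a difference of 7.50 points (6.59 to 8.43). The shares were 56.3% and 50.8% in B cells (5.53 points, 4.63 to 6.43), 52.2% and 49.6% in NK cells (2.67, 1.75 to 3.58), 65.8% and 62.7% in cDC (3.10, 1.97 to 4.23) and 70.6% and 66.8% in monocytes (3.81, 3.04 to 4.59). Unassigned cells had 67.9% and 59.2%, and empty droplets, which hold free RNA, had 60.9% and 54.9%. The difference was above 0 in all 5 classes under each of the alternatives run for it, at 1.52 points in monocytes with Ly6c2/Ccr2 and Ace/Cd300e/Treml4 cells weighted alike and 2.27 points with the remaining monocytes added as a part. Within monocytes the shares were 63.2% and 62.6% in Ace/Cd300e/Treml4 cells, with overlapping intervals. They were 72.0% and 69.6% in Ly6c2/Ccr2 cells and 70.8% and 67.0% in the remaining monocytes, without overlap. A share of UMIs is free of the scaling to a class total, yet capture may differ between the genes, so it is not a share of messages made.

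**Figure D2:**
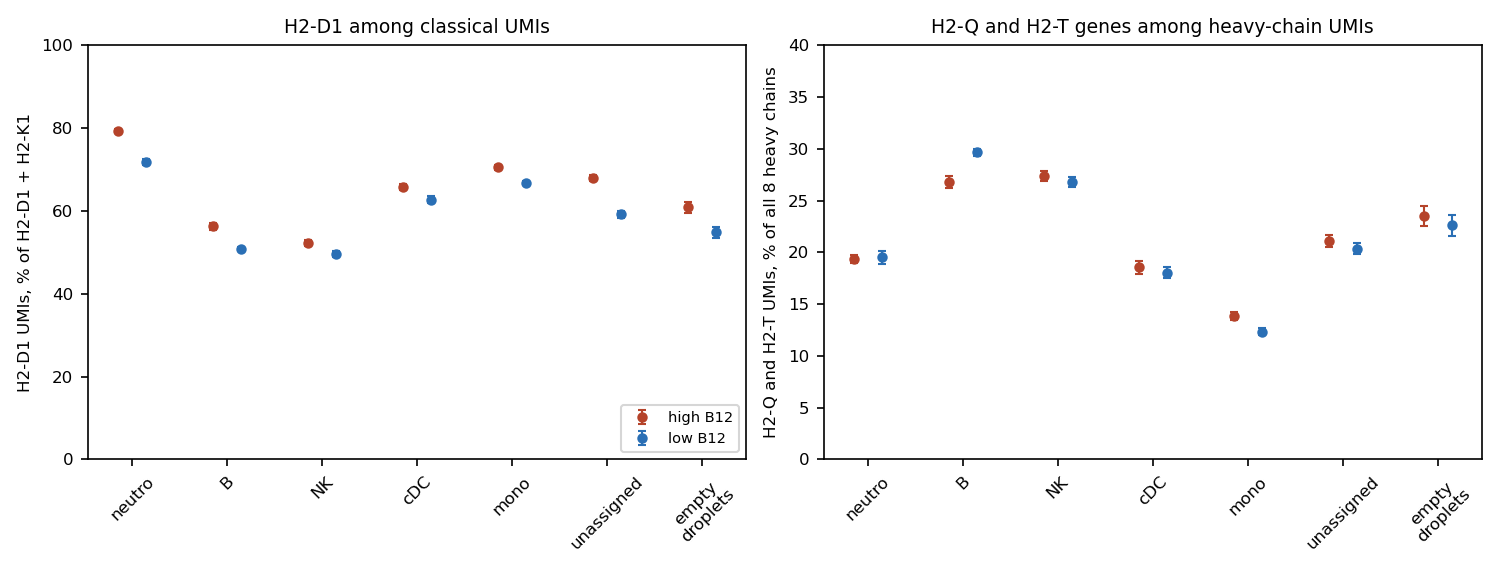
Left, H2-D1 as a percentage of H2-D1 and H2-K1 UMIs; right, the 6 H2-Q and H2-T genes as a percentage of all 8 heavy chains; high-B12 library in red to the left of the low-B12 library in blue, with exact 95% binomial intervals. The H2-D1 share is higher in the high-B12 library in every class, in unassigned cells and in empty droplets.

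The sum of H2-D1 and H2-K1 differed in opposite directions between classes. It stood at 1906 CPM in high-B12 and 2008 CPM in low-B12 neutrophils, 3167 and 3542 CPM in B cells, 5592 and 4999 CPM in NK cells, 2994 and 2845 CPM in cDC, and 3138 and 3270 CPM in monocytes. The log2 ratios, high-B12 over low-B12, were −0.075, −0.16, 0.16, 0.074 and −0.059. The signs in neutrophils and monocytes depended on the scaling: with counts scaled by the median ratio of genes they were 0.14 and 0.014. All genes had median log2 ratios of −0.22 in neutrophils, −0.12 in B cells, −0.11 in NK cells, −0.08 in cDC and −0.07 in monocytes. The classical sum lay above these in all but B cells. H2-D1 and H2-K1 are among the genes with the shortest span, whose medians were −0.14, 0.03, 0.09, 0.05 and 0.08 in that order. The classical sum lay below the medians of that group in B cells and monocytes, and above them in neutrophils, NK cells and cDC. It lay between the quartiles of that group in every class.

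Within neutrophils both classical genes were lower at a higher share of UMIs from calprotectin, the product of S100a8 and S100a9. These shares also dilute every other gene, since CPM are relative to all UMIs. In neutrophils with 5 to 15% calprotectin UMIs H2-D1 stood at 2589 CPM in high-B12 and 2092 CPM in low-B12 cells, at 15 to 25% at 2137 and 1617 CPM, and at 25% or more at 876 and 852 CPM. The intervals of the libraries did not overlap in the first and the second range. H2-K1 was lower in the high-B12 library in each range, at 649 and 734 CPM, 458 and 678 CPM, and 271 and 372 CPM, without overlap. The high-B12 neutrophils held 31.4% of cells in the highest range and the low-B12 neutrophils 22.8%. With the ranges weighted alike the log2 ratio of H2-D1 was 0.30 in place of 0.068, and that of H2-K1 was −0.37 in place of −0.52.

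The lower H2-K1 of high-B12 neutrophils stood beside fewer UMIs of B cell genes. The summed level of 7 B cell markers in neutrophils was 118 CPM in the high-B12 and 352 CPM in the low-B12 library, with all 7 detected in both. With barcodes that met the rules of 2 or more classes left out, the H2-K1 log2 ratio was −0.37, and with every cell weighted alike it was −0.29. The part of B cell RNA in the H2-K1 ratio was not tested.

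Monocytes were a mix of subsets that differ in class I RNA, and the mix differed between the libraries. Cells with at least 2 UMIs of Ly6c2 and Ccr2, genes of inflammatory monocytes, and none of Ace, Cd300e and Treml4, genes of patrolling monocytes, made up 42.5% of high-B12 and 29.98% of low-B12 monocytes (358 and 379 cells). Cells with at least 2 UMIs of Ace, Cd300e and Treml4 and none of Ly6c2 and Ccr2 made up 10.7% and 24.1% (90 and 304 cells). The remaining monocytes, 46.8% and 45.97% (394 and 581 cells), met neither rule. H2-K1 stood at 785 and 775 CPM in the Ly6c2/Ccr2 cells and at 1552 and 1655 CPM in the Ace/Cd300e/Treml4 cells, with overlapping intervals in both. In the remaining monocytes it was lower in the high-B12 library without overlap, at 967 CPM (934 to 1001) and 1122 CPM (1093 to 1152). H2-D1 stood at 2023 and 1775 CPM in the Ly6c2/Ccr2 cells, without overlap, at 2665 and 2769 CPM in the Ace/Cd300e/Treml4 cells and at 2344 and 2281 CPM in the remaining monocytes. The H2-K1 log2 ratio of monocytes, −0.24, was −0.10 with the 3 parts weighted alike and −0.056 with the first and second alone.

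B2m, the light chain, was lower in the high-B12 library in 4 of 5 classes, and its ratio was nearer to 1 than that of H2-K1 in neutrophils, B cells and monocytes. It stood at 929 CPM in high-B12 and 1140 CPM in low-B12 neutrophils, a ratio of 0.814 (0.791 to 0.838). In B cells it was at 1548 and 1729 CPM (0.895, 0.872 to 0.919), in cDC at 1657 and 1766 CPM (0.939, 0.910 to 0.968), in monocytes at 2072 and 2229 CPM (0.930, 0.911 to 0.949) and in NK cells at 2275 and 2205 CPM (1.03, 1.00 to 1.06). B2m thus spanned 2.45-fold and 1.95-fold between classes, from neutrophils to NK cells in the high-B12 and to monocytes in the low-B12 library, where monocytes and NK cells overlapped. In the calprotectin ranges of neutrophils, low to high, B2m stood at 1335 and 1443 CPM, 1034 and 1199 CPM, and 733 and 877 CPM. In monocytes B2m stood at 1855 and 1785 CPM in Ly6c2/Ccr2 cells, at 2819 and 3102 CPM in Ace/Cd300e/Treml4 cells and at 2180 and 2260 CPM in the remaining monocytes. Per UMI of all 8 heavy chains there were 0.393 and 0.457 B2m UMIs in neutrophils, 0.358 and 0.343 in B cells, 0.296 and 0.323 in NK cells, 0.451 and 0.509 in cDC and 0.569 and 0.598 in monocytes.

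H2-Q6 and H2-Q7, the Qa-2 genes, were NK and B cell genes in both libraries and were lower in high-B12 B cells. H2-Q7 stood at 1059 CPM in high-B12 and 898 CPM in low-B12 NK cells (1.18, 1.13 to 1.23), and at 374 and 586 CPM in B cells (0.638, 0.606 to 0.671). H2-Q6 stood at 314 and 318 CPM in NK cells (0.987, 0.915 to 1.06) and at 180 and 254 CPM in B cells (0.709, 0.658 to 0.764). H2-Q4, a nonclassical gene of the same region, was also highest in NK cells and then B cells, at 265 and 221 CPM in NK cells (1.20, 1.102 to 1.31) and at 133 and 173 CPM in B cells (0.770, 0.705 to 0.840). Over the 10 points of 5 classes in both libraries, log2 levels of H2-Q7 followed those of H2-Q4 (Pearson r = 0.99) and H2-Q6 (r = 0.99), points that share libraries and depth.

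In neutrophils, cDC and monocytes the Qa-2 genes were rare. H2-Q7 stood at 29.5 CPM in high-B12 and 70.3 CPM in low-B12 neutrophils, 85.1 and 90.9 CPM in cDC and 41.0 and 53.1 CPM in monocytes. H2-Q6 stood at 11.4 and 28.1 CPM, 30.9 and 47.2 CPM, and 9.88 and 19.5 CPM in the same classes. Empty droplets held 299 and 410 CPM of H2-Q7 and 106 and 160 CPM of H2-Q6, and free RNA could make up to 11.1% of the UMIs of high-B12 and 6.88% of those of low-B12 neutrophils. That share could bring up to 33.2 CPM of H2-Q7 and 11.8 CPM of H2-Q6 in high-B12 neutrophils, no less than was measured, so these levels are read as background. In low-B12 neutrophils it could bring up to 28.2 and 10.99 CPM, and the measured levels were 2.49 and 2.55 times that limit. B cell markers were at 118 CPM in high-B12 and 352 CPM in low-B12 neutrophils, and their part in these levels was not tested. In monocytes H2-Q6 from free RNA could reach 10.8 CPM in the high-B12 library, above the measured level, and 3.21 CPM in the low-B12 library, and H2-Q7 30.3 and 8.24 CPM. The ratios of these genes in neutrophils and monocytes therefore set a level near background against one above it. H2-Q4 stood at 26.0 and 39.0 CPM in neutrophils, 49.2 and 57.5 CPM in cDC and 44.2 and 46.4 CPM in monocytes. In neutrophils free RNA could bring up to 7.84 and 5.69 CPM of H2-Q4, and the part of B cell RNA in its levels was not tested. In monocytes the log2 ratio of H2-Q7 was −0.37, and it was 0.11 with the 3 monocyte parts weighted alike and 0.25 with the Ly6c2/Ccr2 and Ace/Cd300e/Treml4 cells alone. In the remaining monocytes H2-Q7 stood at 45.5 CPM in the high-B12 and 55.7 CPM in the low-B12 library.

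H2-Q10 had the opposite pattern and was a neutrophil gene in this sort. It stood at 210 CPM in high-B12 neutrophils (203 to 217) and 174 CPM in low-B12 neutrophils (164 to 185). Outside neutrophils the high-B12 and low-B12 levels were 23.6 and 15.1 CPM in B cells, 27.9 and 17.3 CPM in NK cells, 12.1 and 6.49 CPM in cDC and 16.8 and 14.1 CPM in monocytes. NK cells, B cells and monocytes were neighbours in that order, with overlapping intervals in both libraries. Neutrophils held 73.9% of the H2-Q10 UMIs of all high-B12 cells and 55.5% of those of all low-B12 cells. H2-Q10 had 13.9 and 12.05 UMIs per 100 UMIs of H2-D1 in neutrophils, and 0.364 to 1.32 in the other 4 classes. It made up 45.9% and 35.7% of H2-Q and H2-T UMIs in neutrophils, where H2-Q6 and H2-Q7 made up 8.95% and 20.2%. Across the 10 points its log2 level ran against that of every other member, most of all H2-T23 (r = −0.92).

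Neutrophils with an H2-Q10 UMI were common even at equal depth. A UMI was found in 54.0% of high-B12 and 51.4% of low-B12 neutrophils, and in 27.1% and 26.6% of those thinned to 1000 UMIs, with 22 and 7 shallower cells left out. In B cells these shares were 10.4% and 6.85%, and 1.94% and 0.865% after thinning. Median depths were 3530 and 3100.5 UMIs in neutrophils, against 6443 and 6048 UMIs in B cells. The 10 cells with most H2-Q10 UMIs held 2.58% and 7.22% of those of neutrophils.

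In both libraries H2-Q10 was lower in neutrophils with more calprotectin. At 5 to 15% calprotectin it stood at 484 CPM in high-B12 and 365 CPM in low-B12 cells, at 15 to 25% at 370 and 198 CPM, and at 25% or more at 46.8 and 16.2 CPM. The high-B12 level was above the low-B12 level in each range, without overlap of the intervals. The level per H2-D1 UMI, for which no interval was computed, was also higher in each range. It was 0.187 and 0.174, 0.173 and 0.122, and 0.0534 and 0.0191. Median depths were 2806 and 2613.5 UMIs in the first range, 3367.5 and 3164 in the second, and 10448 and 10722 in the third. Unassigned cells with at least 2 UMIs of Csf3r and Cxcr2, receptor genes of neutrophils, held 436 and 363 CPM (710 and 299 cells), and other unassigned cells 9.21 and 5.06 CPM. That last split was chosen after the values were seen.

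The pooled H2-Q10 ratio of neutrophils was 1.21 (1.12 to 1.29), a log2 ratio of 0.27. It was 0.026 with barcodes of 2 or more classes left out, 0.043 in cells thinned to 1000 UMIs and 0.64 with the calprotectin ranges weighted alike. Its size thus depended on which neutrophils were kept and how they were weighted. Barcodes of 2 or more classes were 211 of 2672 high-B12 and 133 of 942 low-B12 neutrophils. Outside neutrophils H2-Q10 was 1.56-fold, 1.62-fold and 1.87-fold higher in high-B12 B cells, NK cells and cDC. Neutrophil markers were higher there too, at 2758 CPM in high-B12 and 1675 CPM in low-B12 B cells, 1874 and 658 CPM in NK cells, and 2241 and 1321 CPM in cDC, with all 7 markers detected, and their part in these ratios was not tested. H2-Q10 itself stood at 137 and 53.0 CPM in empty droplets, and free RNA could bring up to 14.6 CPM in high-B12 cDC, above the measured level, and up to 1.08 CPM in low-B12 cDC. In NK cells free RNA could bring up to 9.11 CPM in the high-B12 and 0.894 CPM in the low-B12 library. That would leave 78.1 of 116 high-B12 and 75.9 of 80 low-B12 UMIs. In B cells it could bring up to 5.18 and 3.31 CPM.

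**Figure D3:**
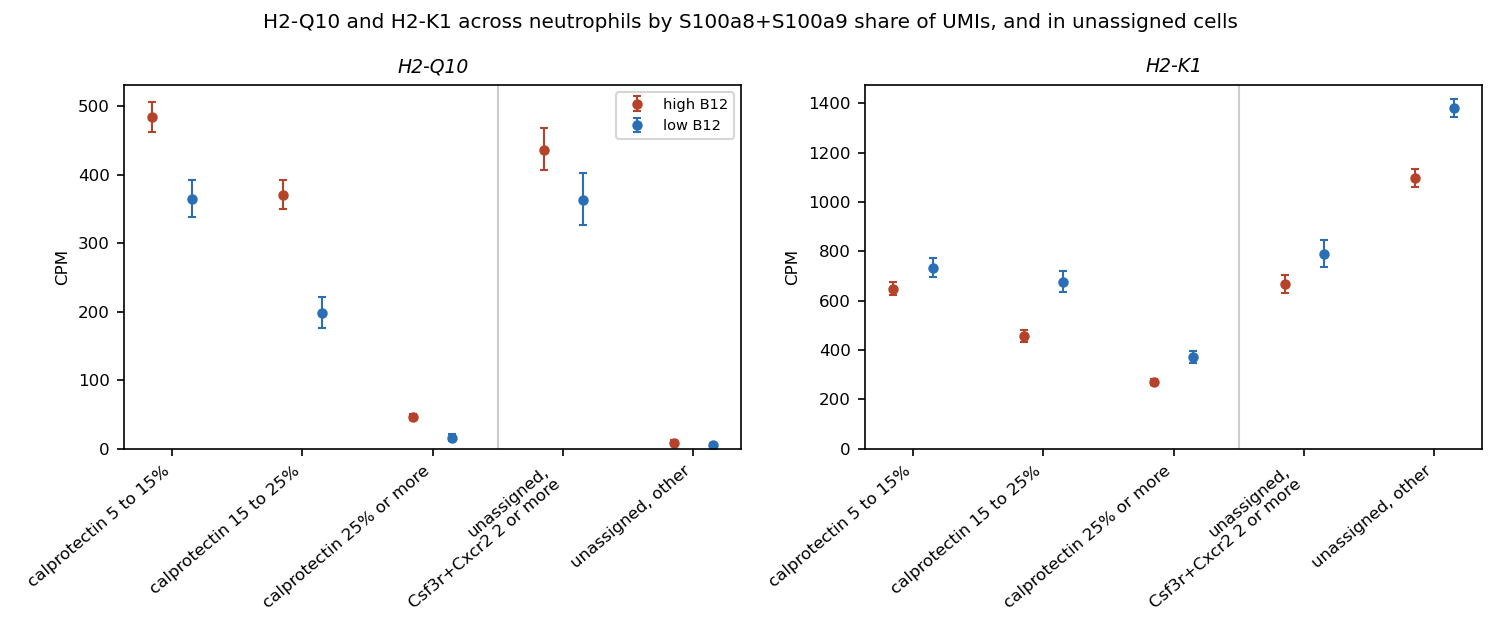
CPM of H2-Q10 (left) and H2-K1 (right) in neutrophils by the percentage of UMIs from S100a8 and S100a9, and in unassigned cells split by Csf3r and Cxcr2, high-B12 library in red to the left of the low-B12 library in blue, with exact 95% Poisson intervals. H2-Q10 is higher and H2-K1 lower in the high-B12 library in each neutrophil range.

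H2-T23, the Qa-1 gene, was highest in cDC, where its interval overlapped that of B cells in the low-B12 library, and was higher in high-B12 cDC, monocytes and NK cells. It stood at 452 CPM in high-B12 and 379 CPM in low-B12 cDC (1.19, 1.12 to 1.27), at 338 and 277 CPM in monocytes (1.22, 1.15 to 1.28) and at 315 and 273 CPM in NK cells (1.15, 1.07 to 1.247). In neutrophils, at 158 and 151 CPM (1.05, 0.970 to 1.13), and in B cells, at 359 and 364 CPM (0.985, 0.933 to 1.04), the libraries did not differ beyond counting error. In the calprotectin ranges of neutrophils, low to high, it stood at 246 and 229 CPM, 207 and 156 CPM, and 106 and 89.3 CPM, without overlap in the second range alone. In the monocyte subsets it was at 346 and 282 CPM in Ly6c2/Ccr2 cells, without overlap, and at 279 and 217 CPM in Ace/Cd300e/Treml4 cells, where intervals met, and in the remaining monocytes at 338 and 294 CPM, without overlap. In cDC it made up 66.2% and 60.5% of H2-Q and H2-T UMIs, against 14.98% and 14.9% in NK cells.

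H2-T22 stood at 125 CPM in high-B12 and 103 CPM in low-B12 NK cells (1.21, 1.07 to 1.38), and at 22.4 to 101.4 CPM in the other classes. Of the 50-base windows in the last 500 bases of its transcript, 59.2% also occur in H2-T10, so its count is uncertain, and no other member shared more than 14.4% with other transcripts. H2-T22, H2-T23, H2-Q4, B2m and Nlrc5 each overlap a gene on the other strand, and strand use in the counting is not given in the sources used here.

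The H2-Q and H2-T genes together took 26.8% of heavy chain UMIs in high-B12 and 29.7% in low-B12 B cells, a difference of −2.88 points (−3.56 to −2.19). The shares were 13.9% and 12.3% in monocytes (1.54 points, 1.01 to 2.08), 19.3% and 19.5% in neutrophils (−0.200, −0.949 to 0.541), 27.3% and 26.8% in NK cells (0.555, −0.137 to 1.248) and 18.6% and 18.1% in cDC (0.496, −0.329 to 1.32). In B cells the H2-Q genes summed to 711 CPM in high-B12 and 1028 CPM in low-B12 cells, and the H2-T genes to 448 and 466 CPM. In monocytes the H2-T genes summed to 393 and 326 CPM, and the H2-Q genes to 112 and 133 CPM. With free RNA subtracted the monocyte difference was 0.638 points.

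Nlrc5, the transactivator gene, was lower in the high-B12 library in all 5 classes, beyond counting error in all but cDC. It stood at 9.67 CPM in high-B12 and 15.5 CPM in low-B12 neutrophils (0.623, 0.481 to 0.812), 70.2 and 111 CPM in B cells (0.633, 0.562 to 0.712), 106 and 136 CPM in NK cells (0.776, 0.686 to 0.878), 41.6 and 50.2 CPM in cDC (0.829, 0.682 to 1.01) and 41.5 and 49.4 CPM in monocytes (0.841, 0.728 to 0.972). In the subsets it stood at 33.9 and 38.2 CPM in Ly6c2/Ccr2 monocytes, at 61.3 and 57.3 CPM in Ace/Cd300e/Treml4 monocytes and at 46.4 and 54.7 CPM in the remaining monocytes, with overlapping intervals in each. The log2 ratio of monocytes, −0.25, was −0.085 with the 3 parts weighted alike and −0.0051 with the first and second alone, and in neutrophils with every cell weighted alike it was 0.0015 in place of −0.69. In neutrophils free RNA could bring up to 4.71 CPM of Nlrc5 in the high-B12 and 3.55 CPM in the low-B12 library. B cell markers were at 118 and 352 CPM there, and their part in the Nlrc5 ratio was not tested. Across the 10 points Nlrc5 was nearest to H2-K1 among the members (r = 0.98).

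Nlrc5 spans 92917 bases, while the other 9 members span 5674 bases or less, and long genes were lower in general in the high-B12 library. In the 25% of genes with the longest span the median log2 ratio was −0.29 in neutrophils, −0.24 in B cells, −0.28 in NK cells, −0.21 in cDC and −0.25 in monocytes, against −0.14, 0.03, 0.09, 0.05 and 0.08 in the 25% with the shortest. Nlrc5 was among the longest 25% in every class, at −0.69, −0.66, −0.37, −0.27 and −0.25. It was below the lower quartile of those genes in neutrophils (−0.54) and B cells (−0.40), and above it in NK cells (−0.42), cDC (−0.36) and monocytes (−0.39).

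Members were counted as lower at a CPM ratio of 0.8 or less and as higher at its inverse or more. In neutrophils 0 members were higher and 5 lower (H2-K1, H2-Q4, H2-Q6, H2-Q7 and Nlrc5), where 5.26% of all measured genes were higher and 36.9% lower. In B cells 1 was higher (H2-Q10) and 5 lower, the same 5 genes, where 7.88% and 25.3% of genes were. In NK cells 1 was higher (H2-Q10) and 1 lower (Nlrc5), where 8.32% and 24.8% were. In cDC 1 was higher (H2-Q10) and 1 lower (H2-Q6), where 8.19% and 19.8% were, and in monocytes 0 and 2 (H2-Q6 and H2-Q7), where 9.06% and 21.3% were. The count of lower members was above the background share in B cells, near it in monocytes and below it in NK cells and cDC, over 10 genes. In neutrophils the lower members included H2-Q6 and H2-Q7, and 3 of the other 8 members were lower, near the background share. The high-B12 levels of H2-Q10 in cDC and of H2-Q6 in monocytes were below what free RNA could bring. For H2-Q10 in NK cells free RNA could bring up to 9.11 of 27.9 CPM in the high-B12 and 0.894 of 17.3 CPM in the low-B12 library.

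The median log2 ratio of the 10 members set NK cells apart from the other classes in sign. It was 0.22 in NK cells, against −0.41 in neutrophils, −0.26 in B cells, −0.07 in cDC and −0.09 in monocytes. In NK cells 8 of 10 members were higher in the high-B12 library, all but H2-Q6 and Nlrc5, where 37.5% of all genes were higher. All genes had a median of −0.11 there. The genes with the shortest span, which include all members but Nlrc5, had a median of 0.09 in NK cells (quartiles −0.12 and 0.24). The members' median in NK cells thus had the sign of that group and lay below its upper quartile. The difference between classes was not tested.

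**Figure D4:**
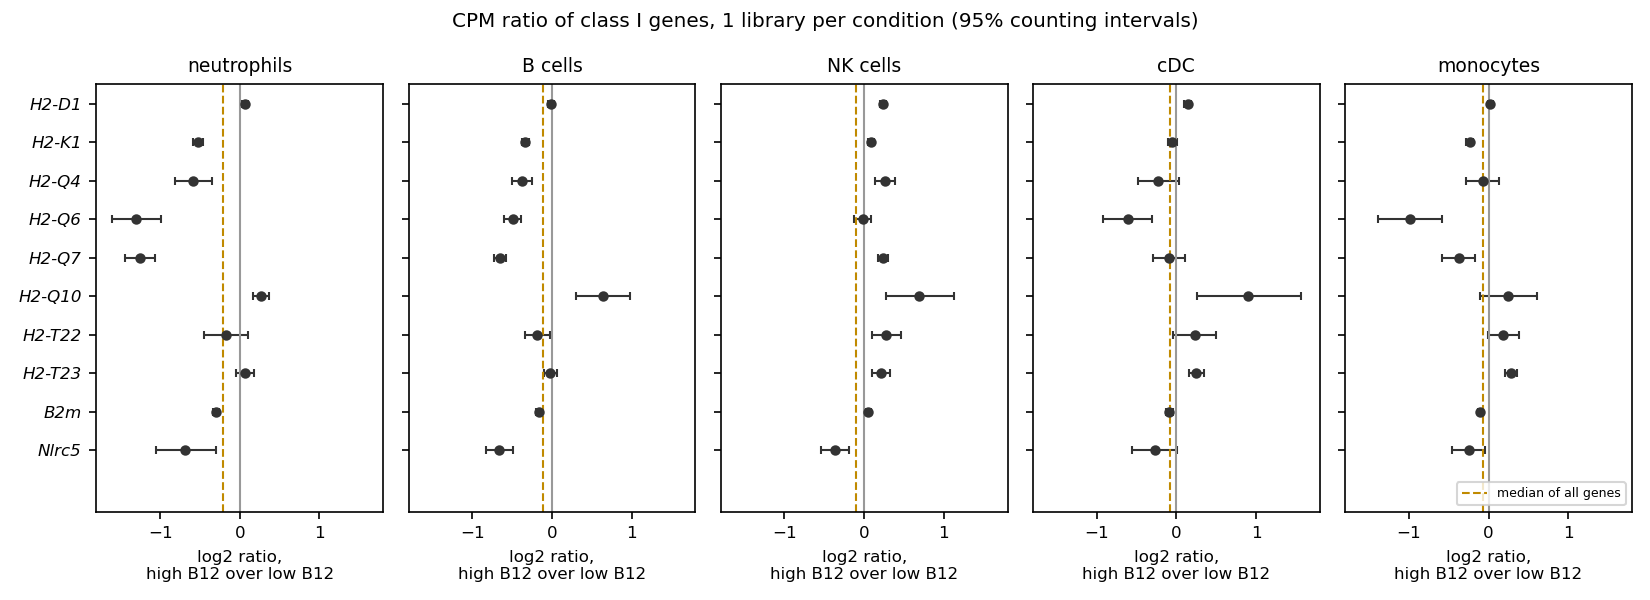
Log2 CPM ratio of the 10 genes, high-B12 over low-B12 library, in each class, with exact 95% counting intervals; the grey line is 0 and the dashed line the median of all measured genes. H2-D1 lies to the right of H2-K1 in every class, and 8 of 10 points lie to the right of 0 in NK cells.

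Genes that supply and load peptides were set beside the members in a list of 13. Of all measured genes 37.5% were higher in the high-B12 library in NK cells, 23.1% in neutrophils, 35.3% in B cells, 39.5% in cDC and 40.6% in monocytes. In NK cells 8 were higher and 5 lower in the high-B12 library, led by the immunoproteasome subunits Psmb8 at 476 and 369 CPM and Psmb10 at 192 and 158 CPM, by Psme2 at 193 and 165 CPM and by Psmb9 at 210 and 180 CPM. In neutrophils 1 was higher and 12 lower, with a median of −0.27 against −0.22 for all genes, and the chaperone gene Canx at 39.2 and 56.0 CPM. In B cells 5 were higher and 8 lower, near the share of all genes, with the peptide transporter genes Tap1 at 81.9 and 104 CPM and Tap2 at 58.1 and 68.5 CPM, and Tapbp, which encodes tapasin, at 94.6 and 115 CPM. In cDC 7 and in monocytes 8 of the 13 were higher, with Psmb8 at 683 and 555 CPM and at 440 and 384 CPM.

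Among 15 factors that act on class I or class II promoters, 1 was higher and 14 were lower in high-B12 B cells. Of all genes measured there, 35.3% were higher. The span of these factors was not taken into account. The median log2 ratio of the factors was −0.26, and that of all genes −0.12. Ciita, the class II transactivator gene, stood there at 166 and 243 CPM, Nfkb1 at 214 and 286 CPM, and the NF-Y subunit gene Nfyc at 51.6 and 73.2 CPM. Irf1, an interferon-induced factor gene, stood at 139 CPM in high-B12 and 201 CPM in low-B12 monocytes and at 106 and 135 CPM in cDC. Of the 15 factors 11 were lower in NK cells, 10 in cDC and 8 in monocytes, and 9 of 14 measured were lower in neutrophils. Beside the shares of all genes these counts were near the background in NK cells, cDC and monocytes, and in neutrophils fewer factors were lower than that share gives.

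Interferon-induced genes were higher in the high-B12 library in all 5 classes by count, with 15 of 15 in monocytes, 15 of 15 in cDC, 10 of 14 in B cells, 9 of 14 in NK cells and 13 of 15 in neutrophils, where 40.6%, 39.5%, 35.3%, 37.5% and 23.1% of all genes were higher. By the fold used for the members, 2 of the 14 were higher and 1 lower in NK cells, where 8.32% and 24.8% of all genes were. In monocytes 12 of the 15 were higher and 0 lower, where 9.06% and 21.3% were. Cells were split by their share of UMIs from 16 such genes, none of them a class I gene: none, up to the median of cells with any, and above it. In monocytes H2-T23 stood at 172 CPM in high-B12 and 192 CPM in low-B12 cells with none, at 261 and 237 CPM in the middle range and at 404 and 347 CPM above the median. In cDC it stood at 387 and 324 CPM in the middle range and at 516 and 463 CPM above the median, and only 18 and 33 cDC had none. In neutrophils it stood at 122 and 122 CPM in cells with none and at 281 and 270 CPM above the median, and H2-D1 at 1389 and 1362 CPM and at 2369 and 2156 CPM. The calprotectin share was 29.2% and 24.8% in the neutrophils with none, and 17.3% and 12.6% in those above the median, so both splits move together.

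H2-K1 in monocytes was lower above the median, at 1080 CPM in high-B12 and 1476 CPM in low-B12 cells with none and at 922 and 1039 CPM above it. The monocyte subsets move with this split: the interferon-induced genes summed to 1186 CPM in high-B12 and 954 CPM in low-B12 Ly6c2/Ccr2 cells, where H2-K1 was lowest, and to 599.8 and 379 CPM in Ace/Cd300e/Treml4 cells, where it was highest. The part of the subsets in the H2-K1 and H2-T23 values was not tested. In B and NK cells the differences across the split were smaller than in neutrophils: H2-T23 stood at 340 and 362 CPM in B cells with none and at 402 and 372 CPM above the median, and at 334 and 277 CPM and at 331 and 281 CPM in NK cells. H2-K1 stood at 1424 and 1813 CPM in B cells with none and at 1386 and 1655 CPM above the median, and at 2905 and 2576 CPM and at 2581 and 2598 CPM in NK cells. The split is a range and not a cell type, and cells with none were shallower, with median depths of 3179 and 4550 UMIs in monocytes against 9406.5 and 8577 UMIs above the median. Between 37 and 133 cells per class and library lay within 10% of the dividing value.

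**Figure D5:**
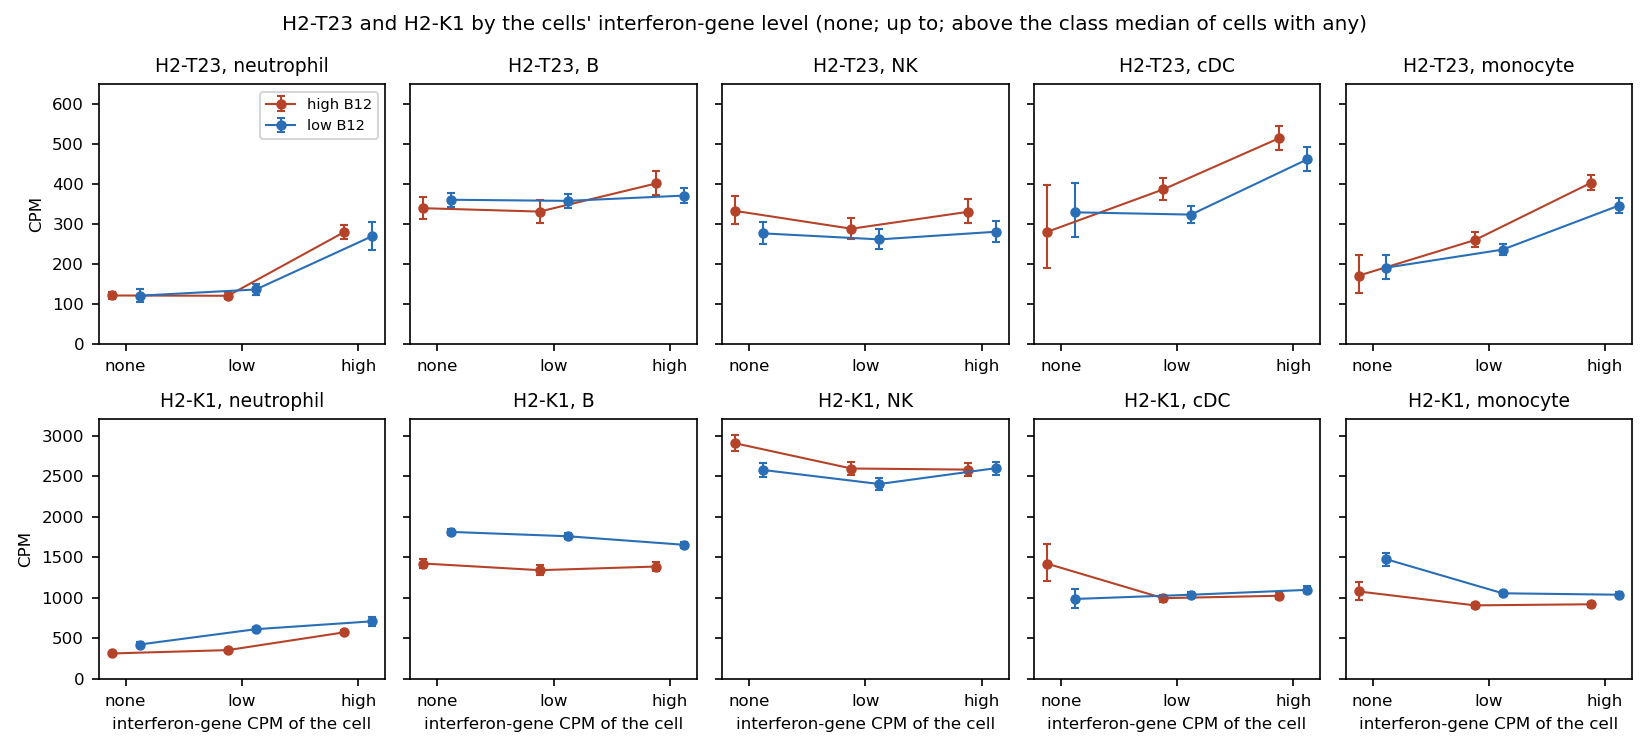
CPM of H2-T23 (top) and H2-K1 (bottom) in cells with no UMI of 16 interferon-induced genes (none), with a share up to the class median (low) and above it (high), high-B12 library in red and left of the low-B12 library in blue, with exact 95% Poisson intervals. H2-T23 is highest in the high range in neutrophils, cDC and monocytes of both libraries, and so is H2-K1 in neutrophils.

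Genes with the pattern most like the members over the 10 points were named by correlation of log2(CPM + 10) among 4875 genes at 50 CPM or more in at least 1 point. For the sum of H2-D1 and H2-K1 these were Ppil2 (r = 0.995), Zfp52 (0.989), Fam173a (0.983), Xpo7 (0.981) and Aven (0.977). For B2m they were Rab18 (0.988), Nab1 (0.987), Mapre2 (0.984), Elk3 (0.984) and Ahnak (0.982). The 10 points come from 2 libraries and share depth and scaling, so these values are a description.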

How the data were processed

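The authors deposited raw UMI counts per gene and barcode, empty droplets included, without normalization. The headers of the deposited counts give Cell Ranger 4, and version 2.1.1 stands in the submitters' processing notes. The kit was a 10x 3′ v2 kit per the labels. The genome build behind the counts is not given in the sources used here, and positions are from GENCODE M21 (GRCm38), in which 99.8% of the files' gene IDs were found.

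Cells had at least 500 UMIs and 200 genes and at most 10% mitochondrial UMIs. Classes were given by first match: neutrophil, S100a8 and S100a9 at 5% of UMIs or more; B, Cd79a and Cd79b at 3 or more; NK, Ncr1 and Klrb1c at 2; cDC, Cd209a, Clec10a and Flt3 at 3; monocyte, Csf1r at 2. Doublets were kept, and were called with Scrublet in scanpy 1.11.5 for an alternative (329 high-B12 and 475 low-B12 cells). UMIs were summed per class and library and scaled to CPM. Ratios have exact conditional binomial intervals, and log2 ratios add 0.5 UMI to each sum. A gene counted as measured at 50 UMIs in both libraries together. Free RNA was estimated from barcodes with 10 to 100 UMIs, as an upper share. Ratios and intervals were tested on simulated counts with Poisson error alone, the error they are built for. Spread between cells, doublets and free RNA were not simulated.

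All 10 members are named, up to 4 genes of each other list by size of log2 ratio at 50 CPM or more, and 5 genes each by likeness; 1 gene that this rule names is not reported here. The members and lists were chosen with earlier results of these data known. Alternatives covered doublets, depth, barcodes of 2 or more classes, thinning, free RNA, scaling and weighting. The weightings of calprotectin ranges and of all 3 monocyte parts, the alternatives for the H2-D1 share and the Csf3r and Cxcr2 split were chosen after the data were seen.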

Additional observations from a re-analysis of the deposited data

Results flagged for a closer look

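Members whose log2 ratio, high-B12 over low-B12, had opposite signs in different classes, each with an interval that excludes 0 and a sign kept under the alternatives that gave a value, are listed here. The differences between classes were not tested, and each class has 1 library per condition. H2-K1 was at 0.08 in NK cells, against −0.52 in neutrophils, −0.33 in B cells and −0.24 in monocytes. H2-Q4 was at 0.26 in NK cells, against −0.59 in neutrophils and −0.38 in B cells. H2-Q7 was at 0.24 in NK cells, against −1.25 in neutrophils, where the high-B12 level is read as background and the low-B12 level is not, and −0.65 in B cells. Subtracting free RNA gave no value for H2-Q7 in neutrophils. H2-T22 was at 0.28 in NK cells and −0.18 in B cells. B2m was at 0.05 in NK cells, against −0.30 in neutrophils, −0.16 in B cells, −0.09 in cDC and −0.11 in monocytes. The sum of H2-D1 and H2-K1 was at 0.16 in NK cells and 0.07 in cDC, against −0.16 in B cells. The sum of the H2-Q and H2-T genes was at 0.20 in NK cells, 0.12 in cDC and 0.14 in monocytes, against −0.37 in B cells.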

How the results depend on the processing

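No paired analysis was possible because each condition has 1 library, and for the same reason no replicate could be left out. Raising the UMI minimum to 1000 moved none of the results beyond its interval. The log2 ratio of H2-D1 and H2-K1 together in neutrophils, −0.075, was −0.0053 with barcodes of 2 or more classes left out and changed sign in 6 settings: 0.0189 with doublets left out, 0.0785 in cells thinned to 1000 UMIs, 0.14 with scaling by the median ratio of genes, 0.0096 without S100a8 and S100a9 in the total, 0.0818 with every cell weighted alike and 0.14 with calprotectin ranges weighted alike. In monocytes, −0.059, it was 0.0142 with that scaling, 0.0106 with Ly6c2/Ccr2 and Ace/Cd300e/Treml4 cells weighted alike, −0.0056 with the remaining monocytes added as a part, −0.0906 after thinning and −0.0874 with cells weighted alike. In NK cells, 0.16, it was 0.13 without doublets, 0.12 without barcodes of 2 or more classes, 0.19 with free RNA subtracted and 0.27 with the median scaling, which gave −0.0463 in B cells and 0.15 in cDC. The H2-Q and H2-T sum in neutrophils, −0.094, was 0.0042 after thinning, 0.12 with the median scaling and 0.17 with calprotectin ranges weighted alike. H2-Q7 in monocytes was 0.25 and 0.11 with these 2 and 3 parts weighted alike, and Nlrc5 in neutrophils 0.0015 with cells weighted alike. The share of H2-Q and H2-T genes in monocytes differed by 0.638 points with free RNA subtracted. The causes were not tested. With genes from 1 UMI on, the background shares higher and lower were 23% and 40.5% in neutrophils, 20.4% and 36.8% in B cells, 21.4% and 33.6% in NK cells, 20.8% and 31.5% in cDC and 24.7% and 30.8% in monocytes. Subtracting free RNA left under 3 UMIs in the high-B12 library, and so no value, for H2-Q6 and H2-Q7 in neutrophils, H2-Q6 in monocytes and H2-Q10 in cDC.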

Other observations

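In cells that met no class rule, H2-K1, B2m, H2-Q7 and Nlrc5 were lower and H2-D1 was higher in the high-B12 library. H2-K1 stood at 934 CPM in high-B12 and 1262 CPM in low-B12 unassigned cells (0.740, 0.713 to 0.769), B2m at 1640 and 1996 CPM, H2-Q7 at 139 and 215 CPM and Nlrc5 at 51.1 and 78.3 CPM, while H2-D1 stood at 1981 and 1830 CPM (1.08, 1.05 to 1.11). Neutrophil markers were at 10880 CPM in the high-B12 and 4769 CPM in the low-B12 unassigned cells, basophil markers at 139.9 and 1.01 CPM, and erythroid markers at 772 and 32.9 CPM. The part of these cells in the values was not tested.

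Other class I-like heavy chain genes were sparse, and 12 of 14 listed were in the files. H2-M3, which presents formylated peptides, stood at 58.9 CPM in high-B12 and 42.1 CPM in low-B12 NK cells (1.40, 1.15 to 1.70), 70.0 and 60.0 CPM in cDC, 50.1 and 42.0 CPM in monocytes and 77.4 and 86.7 CPM in B cells. Hfe, a regulator of iron uptake that binds β2-microglobulin, stood at 105 and 79.8 CPM in cDC (1.31, 1.145 to 1.499) and at 74.5 and 93.7 CPM in monocytes (0.795, 0.715 to 0.884). Fcgrt, the neonatal Fc receptor gene, stood at 82.4 and 69.9 CPM in cDC.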
